A study of Mus musculus with 5 samples.

Results

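Jak2, the signal transducers Stat3, Stat5a and Stat5b, the feedback inhibitors Cish, Socs1, Socs2 and Socs3, and the kinase Pim1 carry cytokine signals from the receptor to the nucleus and shut them off again. These 9 genes, of 18193 genes with a probe set of 1 symbol on the array, were chosen for that shared role, and all 23 of their probe sets with 1 gene symbol in the platform annotation are described. Each was measured on 5 Affymetrix mouse arrays, 3 of the common dendritic cell progenitor (CDP) and 2 of the common myeloid progenitor (CMP). All cells were sorted, each in a pair of successive sorts, from marrow of C57BL/6 mice with a wild-type genotype, and the labels name no transgene or treatment. Both populations lacked lineage markers, Sca-1, CD16 and CD32 and carried CD34 and Flk2. On CDP, c-Kit was intermediate and CD115 present. On CMP, c-Kit was high, and CD115 and CD11c were absent. The labels give no age and leave unsaid if each array had its own animals or a pool, so a p-value reflects only how far these arrays spread, and that spread may be technical. Per its title, the series is about how IRF-8 acts on neutrophil production and on commitment to dendritic cells.

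A cytokine receptor without a kinase of its own holds a Jak kinase at its inner end. Once the ligand joins the receptor chains, the Jak kinases phosphorylate each other, the receptor and the Stat proteins, which then pair, enter the nucleus and bind DNA. Cish and the Socs genes are among the genes that Stat proteins switch on, and their products bind the receptor or the Jak kinase and damp the signal, while Pim1, another Stat target, encodes a kinase that favours growth and survival. In marrow, Jak2 serves the receptors of IL-3, GM-CSF, erythropoietin and thrombopoietin, Stat3 is activated downstream of G-CSF and Flt3 ligand, and Stat5 is activated downstream of IL-3 and GM-CSF.

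Paired Stat proteins bind the sequence TTCNNNGAA, which is the same on both strands and was searched in RefSeq windows (GRCm38.p6) from 250 bases before to 50 bases after a gene's start. Windows were found for 8 of the 9 genes, 11 windows in all, and none was matched for Socs2. The motif was in the windows of Socs3 and Cish and in no other of these windows, against 8.3% of all 32851 windows. Cish held it 2 times, and 0.457% of all windows held it at least that often. Both stretches are shown because they belong to feedback inhibitors that the arrays separated, Socs3 being detected and Cish not. The Socs3 stretch (chr11:117969367-117969566, minus strand) ends at the base before the gene's start, and that of Cish (chr9:107296599-107296678, plus strand) runs on through its second motif, 20 bases past the start. Capitals mark TTCNNNGAA.
Socs3: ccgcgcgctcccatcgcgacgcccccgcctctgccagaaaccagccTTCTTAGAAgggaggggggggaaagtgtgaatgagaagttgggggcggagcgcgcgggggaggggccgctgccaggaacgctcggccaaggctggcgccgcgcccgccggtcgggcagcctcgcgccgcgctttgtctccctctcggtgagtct
Cish: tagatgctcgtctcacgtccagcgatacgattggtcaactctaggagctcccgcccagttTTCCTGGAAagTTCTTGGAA
A match describes these letters and not a bound site, and no binding was measured here.

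The values are GCRMA log2 expression as deposited, and a probe set was tested where at least 2 of the 5 arrays reached log2 5, which also served as the detection level. That held for 10 of the 23 probe sets, and 6 of the 9 genes had at least 1 of them. Each gene is represented by its tested probe set of highest mean. Of these 6 genes, Socs3 was lower in CDP, with an adjusted p under 0.05 (limma, Benjamini-Hochberg over 16552 tested probe sets), none was higher, and 5 did not pass. Over all 8449 tested genes the same rule called 2.14%, of which 1.67% were higher and 0.473% lower in CDP. The arrays of the groups did not overlap for 3 of the 6 genes (Jak2, Socs3 and Pim1), a share that compares with 34.5% of all tested genes. The median difference, CDP minus CMP, was 0.02 (log2) over the 6 genes and 0.17 over all tested genes, and 3 of the 6 were above 0.

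**Figure D1:**
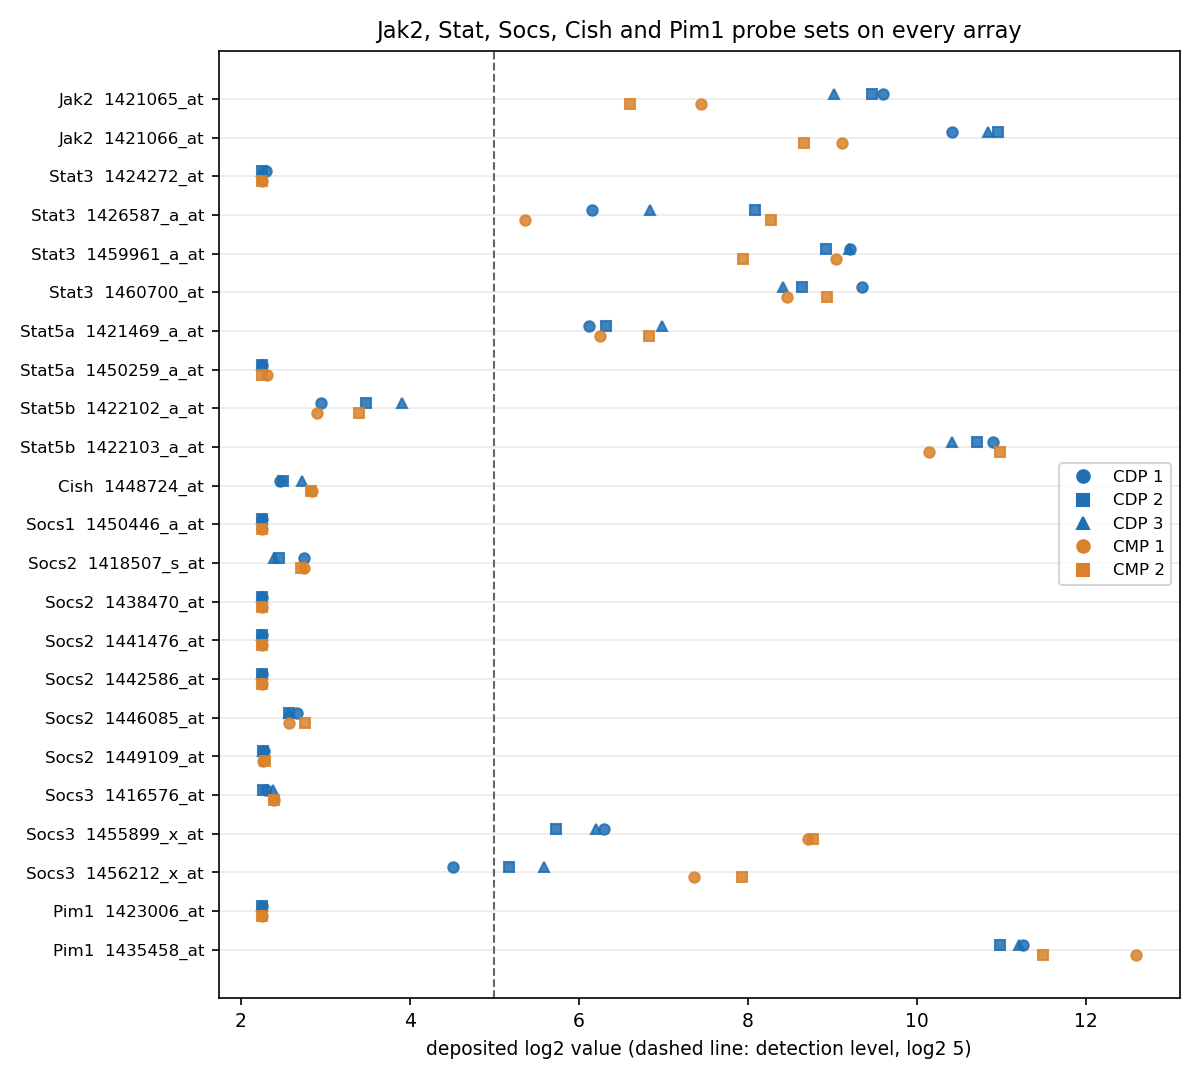
Deposited log2 value (x axis) of each of the 23 probe sets (rows) on the 3 CDP arrays (blue) and 2 CMP arrays (orange), with the detection level of log2 5 as a dashed line. Jak2 is to the right and Socs3 to the left in CDP, the detected Stat probe sets overlap between groups, and the probe sets of Cish, Socs1 and Socs2 stay at or below 2.85.

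Each of the 5 arrays had between 34.0% and 35.8% of its probe sets at or above log2 5, and the arrays correlated at 0.846 to 0.974 over tested probe sets. The 5′ control of beta-actin was low (below log2 8) on CDP 1 and CMP 1 and not on the other 3 arrays, so differences within each kind of array are given for the genes below. The 3 were not alike, since CDP 3 was at 10.52, CDP 2 at 12.97 and CMP 2 at 12.40, so the comparison among them is not fully matched. The markers listed for CDP (Flt3, Csf1r, Irf8, Itgax and Id2) summed to between 15.51 and 15.61 (log2 of the summed unlogged values) on CDP arrays and between 13.17 and 13.40 on CMP arrays, and those listed for CMP and stem cells (Kit, Cd34, Gata2, Meis1 and Angpt1) to between 10.83 and 11.39 against 12.51 and 13.36. Irf8 alone was at 15.07 to 15.26 on CDP arrays and at 12.22 and 12.89 on CMP arrays. Cd34 alone was at 10.20 to 11.00 on CDP arrays and at 11.22 and 12.86 on CMP arrays. Kit, Csf1r, Itgax, Cd34 and Flt3 encode proteins of the sorting gates (c-Kit, CD115, CD11c, CD34 and Flk2), so the sums are in part set by the sort. CD34 and Flk2 were required on both populations. Neutrophil markers, 8 of 10 with a probe set, reached a sum of 14.02 on CDP 2, against 6.62 to 8.18 on the other CDP arrays and 8.03 to 9.08 on CMP arrays. Csf3r alone was at 5.74, 7.70 and 7.95 on CDP 1, 2 and 3 and at 7.65 and 8.93 on CMP arrays. Apart from it, the neutrophil markers stayed below detection on every array but CDP 2. Less RNA per cell and fewer cells of a type cannot be told apart in such bulk samples.

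Jak2 was measured by 2 probe sets, both detected on every array. On 1421066_at it was at 10.41, 10.96 and 10.84 (log2) on CDP 1, 2 and 3, and at 9.12 and 8.66 on CMP 1 and 2. On 1421065_at it was at 9.60, 9.46 and 9.02 in CDP, and at 7.45 and 6.61 in CMP. All 3 CDP arrays lay above both CMP arrays on each probe set, and by more than the spread within either group. The group means were 10.74 ± 0.29 (SD, n = 3) and 8.89 ± 0.32 (n = 2) on the first probe set, a difference of 1.85 ± 0.35 (SE), or 3.61-fold, which narrowly missed the threshold (limma adjusted p = 0.0688). The second gave 2.33 ± 0.40, or 5.04-fold (limma adjusted p = 0.0543). The mean of both probe sets, tested as 1 value per gene, passed at 2.09 ± 0.33 (limma adjusted p = 0.0255), and so did the first with the arrays low in 5′ beta-actin as a block (limma adjusted p = 0.0220). Of all tested probe sets, 4.50% differed by at least as much as the first and 2.25% by at least as much as the second. Between CDP 1 and CMP 1 the differences were 1.30 and 2.15, and between the mean of CDP 2 and CDP 3 and CMP 2 they were 2.24 and 2.63, so the direction was the same within both kinds of array. In the other 18 settings the first probe set kept its direction and did not pass, among them the removal of CDP 1, CDP 2, CDP 3, CMP 1 or CMP 2 (limma adjusted p = 0.0928, 0.309, 0.322, 0.168 and 0.200) and no filter (limma adjusted p = 0.223).

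Stat3, the factor of the IL-6 and G-CSF family and of Flt3 ligand, was detected on 3 of its 4 probe sets, and on none of the 3 were the groups apart. On its brightest, 1459961_a_at, it was at 9.20, 8.93 and 9.19 on the CDP arrays and at 9.04 and 7.94 on the CMP arrays, so that CMP 2 lay below all others. The difference was 0.62 ± 0.42 (SE, 95% interval -0.39 to 1.63, limma adjusted p = 0.542). Without CMP 1 another probe set, 1460700_at, had the highest mean, and its difference was -0.13. On 1460700_at Stat3 was at 9.35, 8.64 and 8.42 in CDP and 8.47 and 8.93 in CMP, a difference of 0.11 ± 0.41 (95% interval -0.88 to 1.09). On 1426587_a_at it spread from 5.36 on CMP 1 to 8.28 on CMP 2, with CDP at 6.16, 8.08 and 6.84, and this probe set was lowest on the 2 arrays low in 5′ beta-actin. The fourth probe set, 1424272_at, was within 0.04 of the table's lowest value on every array.

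Stat5a and Stat5b, neighbouring and closely related genes that serve IL-3, GM-CSF and growth hormone receptors, were each detected on 1 of 2 probe sets. Stat5a on 1421469_a_at was at 6.12, 6.32 and 6.98 in CDP and at 6.25 and 6.83 in CMP. The CMP arrays lay within the range of the CDP arrays, and the difference was -0.07 ± 0.40 (SE, 95% interval -1.05 to 0.91, limma adjusted p = 0.963). Stat5b on 1422103_a_at was at 10.90, 10.70 and 10.41 in CDP and at 10.15 and 10.98 in CMP. Here the CMP arrays were the lowest and the highest, with a difference of 0.11 ± 0.39 (95% interval -0.83 to 1.05, limma adjusted p = 0.930) that changed sign when arrays were centred on their median (-0.02). The intervals leave room for a change of up to about 1 log2 unit either way in both genes. The other probe set of Stat5b stayed between 2.91 and 3.91 and that of Stat5a at or below 2.31.

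Socs3, the inhibitor that binds gp130 and the G-CSF receptor together with their Jak kinase, was the 1 gene of the 9 to pass. On 1455899_x_at it was at 6.29, 5.73 and 6.21 in CDP and at 8.71 and 8.76 in CMP. On 1456212_x_at it was at 4.51, 5.18 and 5.59 in CDP and at 7.36 and 7.93 in CMP. On both probe sets every CDP array lay below both CMP arrays, and CDP 1 fell under the detection level on the second. The first gave group means of 6.08 ± 0.30 (SD, n = 3) and 8.74 ± 0.04 (n = 2), a difference of -2.66 ± 0.33 (SE), or 6.31-fold lower in CDP (limma adjusted p = 0.0295). The second gave -2.55 ± 0.43, at least 5.24-fold lower with values below 5 set to 5, and did not pass (limma adjusted p = 0.0532). The third Socs3 probe set, 1416576_at, lay between 2.26 and 2.40 on every array, and both probe sets that detected the gene are marked by the manufacturer as able to match other transcripts, so the call has no unmarked probe set behind it. Leaving out any 1 of the 5 arrays kept the difference between -2.77 and -2.49 and ended the call, at limma adjusted p = 0.0645 without CDP 1, 0.167 without CDP 2, 0.173 without CDP 3, 0.146 without CMP 1 and 0.145 without CMP 2.

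Socs3 was lower in CDP within both kinds of array, by -2.41 between CDP 1 and CMP 1 and by -2.79 between the mean of CDP 2 and CDP 3 and CMP 2. CDP 2, the array with neutrophil transcripts, had the lowest value of the gene among CDP arrays on its brighter probe set (5.73), and the middle one on the other (5.18). The markers of mast cells and basophils, 4 of 5 with a probe set, also differed between the groups, with sums of 6.45 to 6.76 in CDP and 9.73 to 10.87 in CMP, Fcer1a below detection on every array. Those of megakaryocytes summed to 5.57 to 6.19 in CDP and 7.02 to 7.22 in CMP, with Gp9, Gp1bb and Ppbp, 3 of 5, below detection on every array. Monocyte and macrophage markers, 4 of 6 with a probe set, moved the other way, from 8.93 to 8.99 in CMP to 10.63 to 11.09 in CDP, with C1qa below detection. Most of that sum was Ccr2, alone at 10.55, 10.98 and 10.89 in CDP and at 8.89 and 8.72 in CMP. Adgre1 was at 5.80, 5.82 and 5.41 in CDP and at 4.60 and 3.88 in CMP, and Cd14 overlapped between the groups. B cell markers, 4 of 5 with a probe set, summed to 6.28 to 6.56 in CDP and 4.67 to 5.51 in CMP, with Pax5, Cd79a and Ebf1 below detection on every array and Vpreb1 alone above it. Erythroid markers and those of T and NK cells with a probe set were below detection on every array. Their part in the values of Socs3 and Jak2 was not tested.

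**Figure D2:**
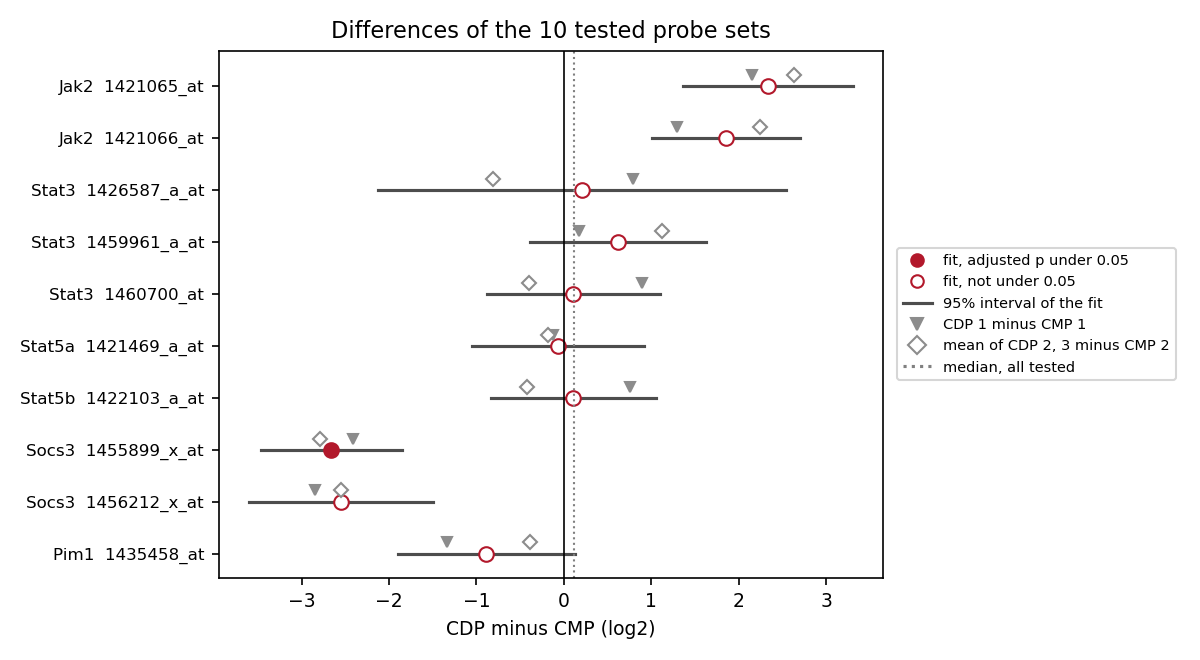
CDP minus CMP (log2, x axis) of the 10 tested probe sets, as the fitted difference (circles, filled where the adjusted p is under 0.05) with its 95% interval, and in grey CDP 1 minus CMP 1 (triangles, both low in 5′ beta-actin) and the mean of CDP 2 and CDP 3 minus CMP 2 (diamonds). Both Jak2 probe sets lie above 0 and both Socs3 probe sets below 0 in each, while Stat3 on 2 probe sets and Stat5b change sign between the kinds of array.

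The other feedback inhibitors were not detected in either population. Cish, which competes with Stat5 for its place on the receptor, was at 2.46, 2.51 and 2.73 in CDP and at 2.85 and 2.84 in CMP on its 1 probe set. Socs1, which blocks Jak kinases after interferon and IL-4 family signals, was at the table's lowest value of 2.26 on all 5 arrays. Socs2, best known for restraining growth hormone signals, had 6 probe sets, none above 2.77 on any array. Values this low were not tested, give no order between CDP and CMP, and do not show that a transcript was absent.

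Pim1 was detected on 1 of 2 probe sets. On 1435458_at it was at 11.26, 10.99 and 11.21 in CDP and at 12.59 and 11.49 in CMP, so that the CDP arrays lay below both CMP arrays, CMP 2 by a small margin. The difference was -0.89 ± 0.42 (SE, 95% interval -1.90 to 0.13, limma adjusted p = 0.376) and rested much on CMP 1, since it was -0.34 without that array and -1.44 without CMP 2. Its other probe set, 1423006_at, was at the lowest value on every array.

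Among tested probe sets at 1 per gene, the profiles nearest to Jak2 over the 5 arrays, by mean absolute difference after each was centred on its own mean, were those of Plxnc1 (0.07 log2), a semaphorin receptor, and Amz1 (0.08). For Socs3 they were Kit (0.04) and Eya1 (0.18). Kit, the stem cell factor receptor used in the sorting gates, was at 7.75, 7.18 and 7.70 in CDP and at 10.04 and 10.20 in CMP, a difference of -2.57 ± 0.34 (SE, limma adjusted p = 0.0318). With 5 arrays in 2 groups, likeness of this kind reflects the group means and the order of the arrays within them and is given as a description.

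Further genes of the pathway were read from lists of 75 genes, of which 71 had a probe set and 52 were tested. In all lists together 4 were higher and 1 was lower in CDP, and 47 did not pass. Of all tested genes, 1.67% were called higher and 0.473% lower. The median difference of the lists was 0.45, against 0.17 over all tested genes. It includes 5 receptors, the 4 called higher among them, that were below detection on both CMP arrays, which fixes their sign. Among all 8449 tested genes, 264 were below detection on both CMP arrays. Of the 5 called genes, all were receptors. The 4 called higher entered through CDP alone, and the 1 called lower, Kit, was used in the sorting gates. None of the other relay, feedback and Pim genes was called by limma, and none had an unadjusted p under 0.05. Of all 8449 tested genes, 1448 did. Of the other Jak kinases, Jak1 was at 0.0026 ± 0.39 (CDP minus CMP, SE) and Tyk2 at 0.88 ± 0.39 (limma adjusted p = 0.353), and Jak3 was not tested. Of the other Stat factors, Stat4 was at -0.36 ± 0.32 and Stat6 at 0.65 ± 0.41, and Stat2 was not tested. All 4 other Socs genes were tested, among them Socs5 at -0.88 ± 0.43, Socs7 at -0.42 ± 0.45 and Socs4 at 0.07 ± 0.30. Pim3 was at -0.10 ± 0.47, and Pim2 was not tested.

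Among 10 tested phosphatases, Pias proteins and adaptors that restrain these signals, none was called, 3 had an unadjusted p under 0.05, and the median difference was 0.20. By limma, 1448 of all 8449 tested genes had an unadjusted p under 0.05, and their median difference over all 8449 was 0.17. Sh2b3, the adaptor Lnk that binds and restrains Jak2, came nearest. It was at 9.70, 10.58 and 10.68 in CDP and at 8.03 and 8.13 in CMP, with no overlap and a difference of 2.24 ± 0.41 (SE, limma adjusted p = 0.0616). Ptpn6, the phosphatase SHP-1, was at 1.91 ± 0.55 (limma adjusted p = 0.174), and Pias3, an inhibitor of Stat3, at 1.49 ± 0.42 (limma adjusted p = 0.170). Among 15 tested genes known as Stat targets, none was called, 7 had an unadjusted p under 0.05, beside the same 1448 of 8449, and the median was 0.09. Those of smallest p went both ways, the cyclin gene Ccnd3 at 2.16 ± 0.42 (limma adjusted p = 0.0733), Myc at -1.82 ± 0.37 (limma adjusted p = 0.0810) and Osm, which encodes oncostatin M, at -1.87 ± 0.45 (limma adjusted p = 0.121).

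Of 15 tested cytokine receptor genes, out of 27 with a probe set, 4 were higher in CDP, none was lower and 11 did not pass, beside 1.67% of all tested genes called higher. Of all 8449 tested genes, 264 were below detection on both CMP arrays. Of the 15, 5 were, and so entered through CDP alone, namely the 4 called genes and Il10ra, which fixes the sign of their differences. The median of 1.16 and the 14 of 15 above 0, beside 0.17 and 5121 of 8449 for all tested genes, include these 5 and are given as a description. Lifr, the receptor of leukaemia inhibitory factor, was at 7.54, 7.47 and 7.12 in CDP and at 2.62 and 2.56 in CMP. Detected in CDP and not in CMP, it rose by at least 5.19-fold (limma adjusted p = 0.00785). Csf2rb2, a beta chain of the IL-3 receptor in mice, was at 9.42, 9.20 and 9.10 in CDP and at 2.96 and 4.34 in CMP, at least 18.9-fold higher (limma adjusted p = 0.0119). Another beta chain, Csf2rb, was detected on every array on its brightest probe set and was not called. It was at 10.92, 11.60 and 11.45 in CDP and at 9.54 and 10.41 in CMP (1.35 ± 0.41, limma adjusted p = 0.197). Also called were Il7r, at least 2.27-fold higher (limma adjusted p = 0.0318), and Il13ra1, at least 1.34-fold higher (limma adjusted p = 0.0195). No probe set of the table, and so none of these 4 genes, was called once CDP 2, CDP 3, CMP 1 or CMP 2 was left out (limma, 1490 to 2766 probe sets at an unadjusted p under 0.05), and 44 were without CDP 1. Il6st, chosen after its values were seen because its product gp130 pairs with the Lifr product, was at 2.31 ± 0.56 on its brightest probe set and at 1.94 ± 0.43 and 0.62 ± 0.93 on others, the last with overlapping groups, none past the threshold (limma adjusted p = 0.124, 0.101 and 0.814). Of the receptor tyrosine kinases of the gates, Kit was lower, as given above, and Flt3 (0.92 ± 0.30, limma adjusted p = 0.221) and Csf1r (1.63 ± 0.35, limma adjusted p = 0.0966) did not pass on their brightest probe sets. Another probe set of Csf1r, 1419873_s_at, was higher in CDP (2.13 ± 0.29, limma adjusted p = 0.0355). The gates took c-Kit as intermediate on CDP and high on CMP, and CD115, which Csf1r encodes, as present on CDP only. The directions of Kit and Csf1r follow that choice and are no independent result.

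**Figure D3:**
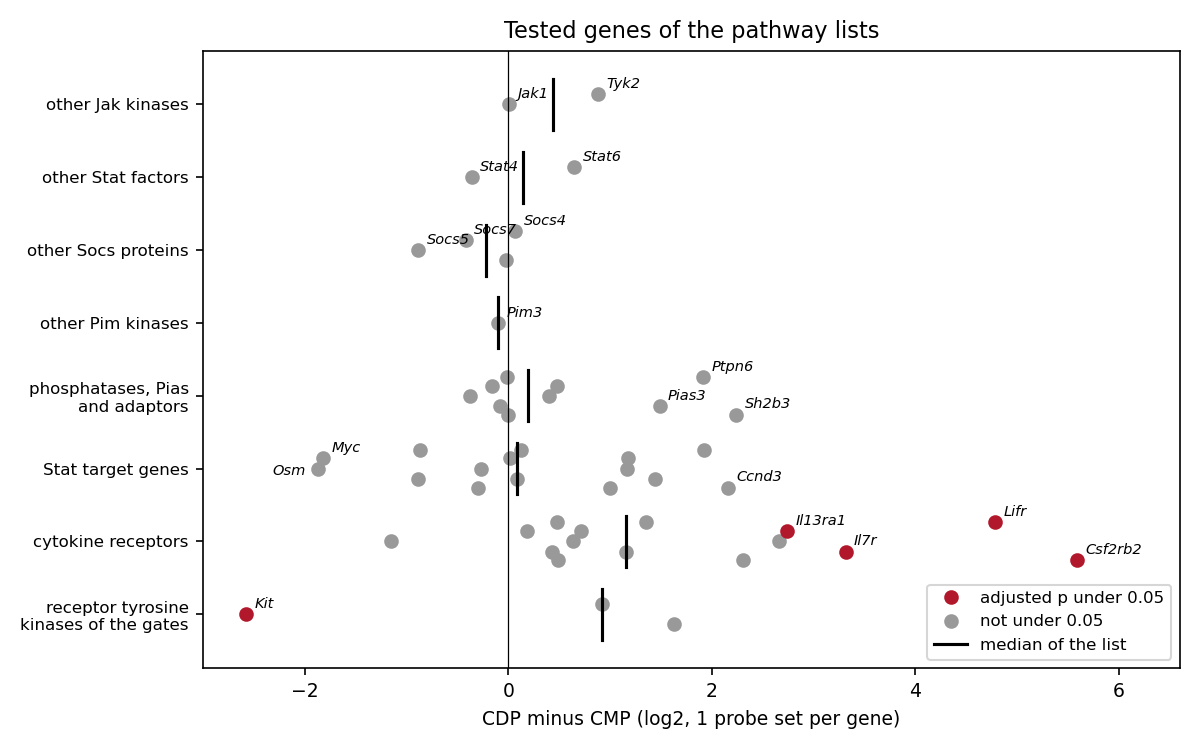
CDP minus CMP (log2, x axis) of the 52 tested genes of the 8 pathway lists (rows), 1 probe set per gene, with calls in red and the median of each list as a bar. The 4 genes called higher are cytokine receptors below detection on both CMP arrays, and the 1 called lower is Kit, used in the sorting gates. No gene of the relay, feedback and Pim lists was called, with Tyk2 at 0.88 and Socs5 at -0.88 farthest from 0.

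**Figure D4:**
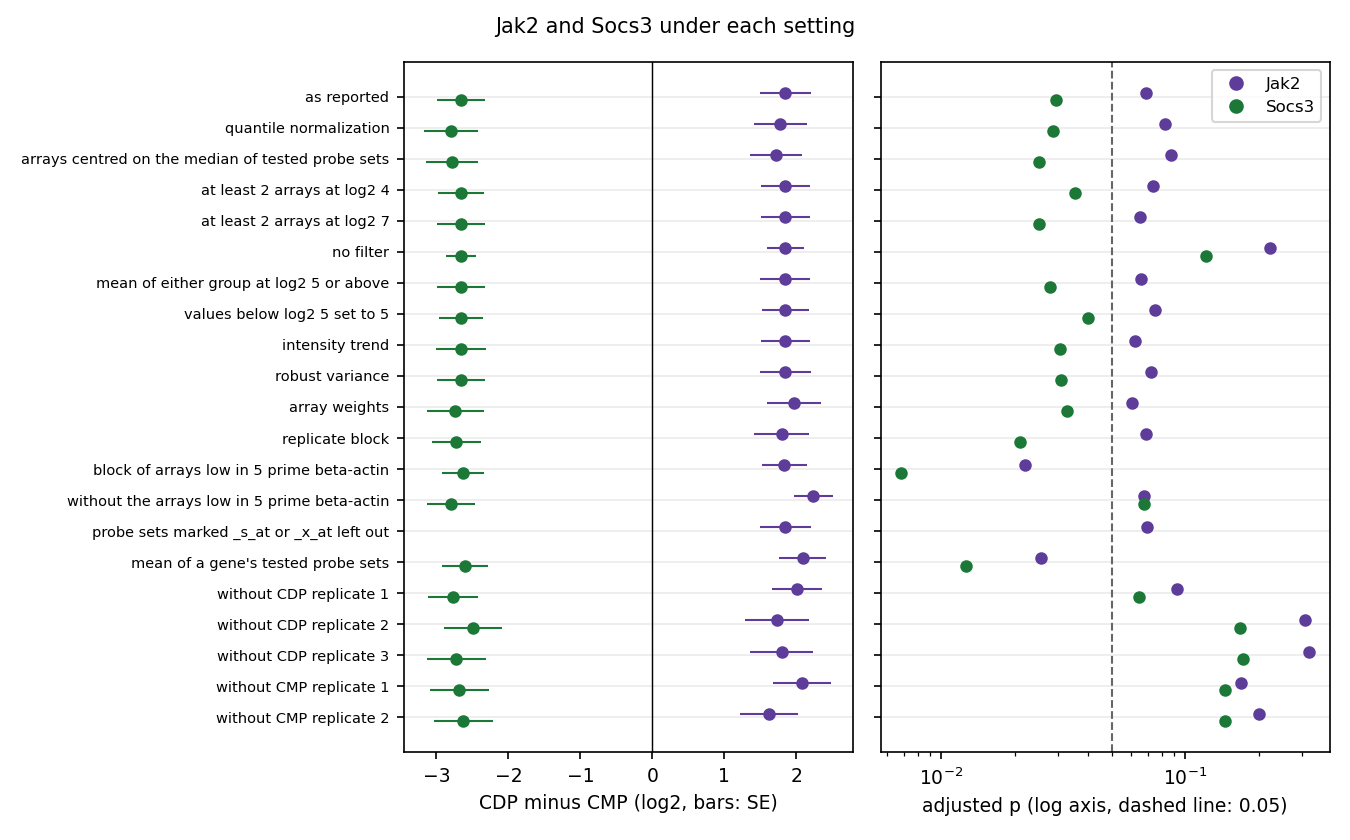
CDP minus CMP with its SE (left) and adjusted p (right, log axis, 0.05 dashed) of Jak2 and Socs3 as reported and under 20 settings, with no Socs3 value where marked probe sets were left out. The differences keep their sign in all settings shown, between 1.62 and 2.24 for Jak2 and between -2.80 and -2.49 for Socs3, while the adjusted p values fall on both sides of 0.05.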

How the data were processed

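The deposited table holds log2 values that the authors made with GCRMA, per the submitters' processing notes. Its version and any genome build are not given in the sources used here. GCRMA corrects background by probe sequence, normalizes quantiles and summarises probe sets, and dim probe sets end near a shared lowest value (2.26). Per the series' design text, RNA of 10000 to 30000 sorted cells was amplified over 2 rounds. Groups and replicate numbers came from sample titles, of which that of CDP 3 opens with CM and the rest with BM, although its tissue label is the same. Without 64 manufacturer's controls, 45037 probe sets remained, used as deposited. Both groups were compared with limma 3.58.1 in R 4.3.3 (lmFit, eBayes, 2-sided) on 16552 probe sets with at least 2 arrays at log2 5. Adjusted p-values are Benjamini-Hochberg over these, with a threshold of 0.05. The procedure was tested on simulated data. The number of arrays limits the precision. Where an array of the dimmer group lay below log2 5, the fold is a lower bound with values below 5 set to 5.

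The genes, lists and settings were chosen with earlier results of these data known. Named were all 9 genes, every called gene of a list or else its 3 of smallest p, and the 2 nearest profiles for genes spanning at least 2 log2 units. Alternatives were other scalings, filters and variance models, the replicate number or the arrays low in 5′ beta-actin as a block, gene means, and removal of arrays or of marked probe sets. Listed genes that lack a probe set of 1 symbol were not analysed here.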

Additional observations from a re-analysis of the deposited data

How the results depend on the processing

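The number of probe sets called over the whole table (287) stayed within 1.5 times under 9 of 19 settings. It was 55 with no filter, 154 with values below log2 5 set to 5, 608 with the replicate number as a block and 1438 with the arrays low in 5′ beta-actin as a block. It was 0 without both of those arrays (limma, 4683 at an unadjusted p under 0.05), and between 0 and 44 when 1 array was left out (1490 to 3200 at an unadjusted p under 0.05), 44 being the count without CDP 1. Gene means gave no count of probe sets. Of the 9 genes, 1 (Socs3) was called as reported. This became 2 (Jak2 and Socs3) with gene means or with the block of arrays low in 5′ beta-actin, and 0 with no filter, without the arrays low in 5′ beta-actin, without marked probe sets and without any 1 array (2 to 3 genes at an unadjusted p under 0.05 when 1 array was left out). Socs3 missed the threshold at -2.66 with no filter (limma adjusted p = 0.121), at -2.79 without the arrays low in 5′ beta-actin (limma adjusted p = 0.0677) and at -2.77 to -2.49 without 1 array. The cause was not tested. More probe sets entered the fit with no filter, and fewer arrays entered the removals. Over all its settings its adjusted p ran from 0.00683 to 0.173. Signs changed for genes that had not passed. Stat3 became -0.13 without CMP 1, where 1460700_at took the place of 1459961_a_at as its probe set of highest mean. On 1459961_a_at the CDP mean (9.11) was above CMP 2 (7.94), so the reported probe set kept its sign without CMP 1. Stat3 ran up to 0.71 without other single arrays. Stat5a became 0.062 with array weights, and from -0.35 to 0.22 without 1 array, above 0 without CDP 1 (0.11), CDP 2 (0.01) and CMP 2. Stat5b became -0.020 with median centring, -0.42 without the arrays low in 5′ beta-actin, and from -0.31 to 0.52 without 1 array, below 0 without CDP 1 (-0.0068) and CMP 1. Pim1 kept its sign and stayed uncalled in all 20 settings. Replicates 1 and 2 occur in both groups, and their deviations from the group means correlated at 0.606 and 0.579. With 2 CMP arrays, the deviations of CMP 1 and CMP 2 mirror each other by construction, so these values are not separate signs of pairing. CDP 1 and CMP 1 are also the arrays low in 5′ beta-actin. The labels tie equal numbers to no common animal or date, and CDP 3 has no partner. With the replicate block, Socs3 was at -2.72 (limma adjusted p = 0.0210) and Jak2 at 1.80 (limma adjusted p = 0.0690), with no other call changed among the 9 genes. Where an array was left out of a group of 2, the lone array is assumed to vary like the other group.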
